A study of Homo sapiens with 13 samples.

Results

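The 10 genes described here encode surface molecules used to place leukemic blasts along the path from progenitor to lymphocyte: CD34, KIT, FLT3, MME (CD10), CD9, CD24, CD38, CD99, CD44 and CD52. They were chosen by name, as 10 of the 18568 genes that had a probe set annotated to a single symbol, and all 10 were measured, by 32 probe sets in all. For a gene with several probe sets, the brightest one on average represents it here and the others serve as a check. Expression was measured in 13 established acute lymphoblastic leukemia (ALL) cell lines, with 1 HG-U133 Plus 2.0 oligonucleotide array per line. T-ALL was represented by 7 lines (Jurkat, Molt4, CCRF-CEM, TALL-1, P12-ICHIKAWA, ALL-SIL and HPB-ALL), and B-cell precursor ALL (BCP-ALL) by 6 lines (REH, 697, RS4;11, which the labels write RS4,11, Nalm6, Nalm16 and Nalm30). No line was treated, and all grew in RPMI-1640 with serum for 30 h per the labels, while the study's methods describe overnight culture in fresh medium. The p-values measure the spread between the lines of a lineage, which the labels list as separate lines.

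Lymphocytes arise from bone marrow progenitors that carry CD34 and the cytokine receptors KIT and FLT3, and lose them as they commit. B-cell precursors then display CD10, CD9, CD24 and CD38, whereas developing thymocytes carry high CD99. Because blasts keep such antigens in aberrant combinations, flow cytometry panels use them to diagnose ALL and to find residual leukemia after therapy. CD38 and CD52 are also the targets of therapeutic antibodies. The arrays measured mRNA and not the amount of protein on the cell surface.

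The deposited values are log2(signal + 16), so 4 is the lowest value possible, and values of at most 5 are called near the floor here. Differences against such values understate the change in signal. Array medians lay between 5.15 and 5.32 in T-ALL and between 5.05 and 5.37 in BCP-ALL. The lineage markers followed the labels: CD3D ranged from 11.56 to 12.25 in T-ALL lines and reached at most 4.38 in BCP-ALL lines, and PAX5 reached at most 4.59 in T-ALL lines and ranged from 10.52 to 11.27 in BCP-ALL lines. Of the B-lineage markers 8 of 9 measured were lower in T-ALL, and of the T-lineage markers 7 of 11 were higher. None of 8 myeloid markers passed the test. Their summed log2 level was 39.72 to 41.28 in T-ALL lines and 39.97 to 48.16 in BCP-ALL lines, highest in REH. The highest BCP-ALL levels were 12.1 for MPO and 11.2 for LYZ, against highest T-ALL levels of 5.3 and 7.6. No other measured myeloid marker exceeded 6.1 in any line. Near the floor in every line were 2 of the 8, and the part of these markers in the results was not tested. P12-ICHIKAWA and TALL-1 had nearly the same profile (Pearson's r = 0.993 over all probe sets, the highest of 78 pairs of arrays). Nalm16 and Nalm30 came next (r = 0.959). Jurkat and Molt4 followed (r = 0.956) and were not averaged in any setting. Whether the lines of such a pair come from 1 leukemia was not tested, and if they do, the n of 7 T-ALL or 6 BCP-ALL lines and the SDs count a leukemia more than once. The same 3 members passed the test described below with P12-ICHIKAWA and TALL-1 averaged as 1 line, and with Nalm16 and Nalm30 also averaged. In the latter setting FLT3 passed only narrowly (limma adjusted p = 0.0493). Between P12-ICHIKAWA and TALL-1 no member differed by more than 0.44 log2 units, and between Nalm16 and Nalm30 none by more than 0.47. The labels give no repeat array of a line, so neighbors in an order of lines have no error of their own.

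In T-ALL compared with BCP-ALL, 3 of the 10 genes passed limma's test after Benjamini-Hochberg adjustment over all 18568 genes, and all 3 were lower in T-ALL: CD24, CD9 and FLT3. Over all genes, 4.45% passed in either direction and 2.17% were lower in T-ALL. CD24 and CD9 were the 2 members whose T-ALL and BCP-ALL values did not overlap, a pattern shown by 1.3% of all genes in that direction. The other 7 genes did not pass. The median difference (T-ALL minus BCP-ALL) was -0.37 log2 units over the members and -0.01 over all genes.

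**Figure D1:**
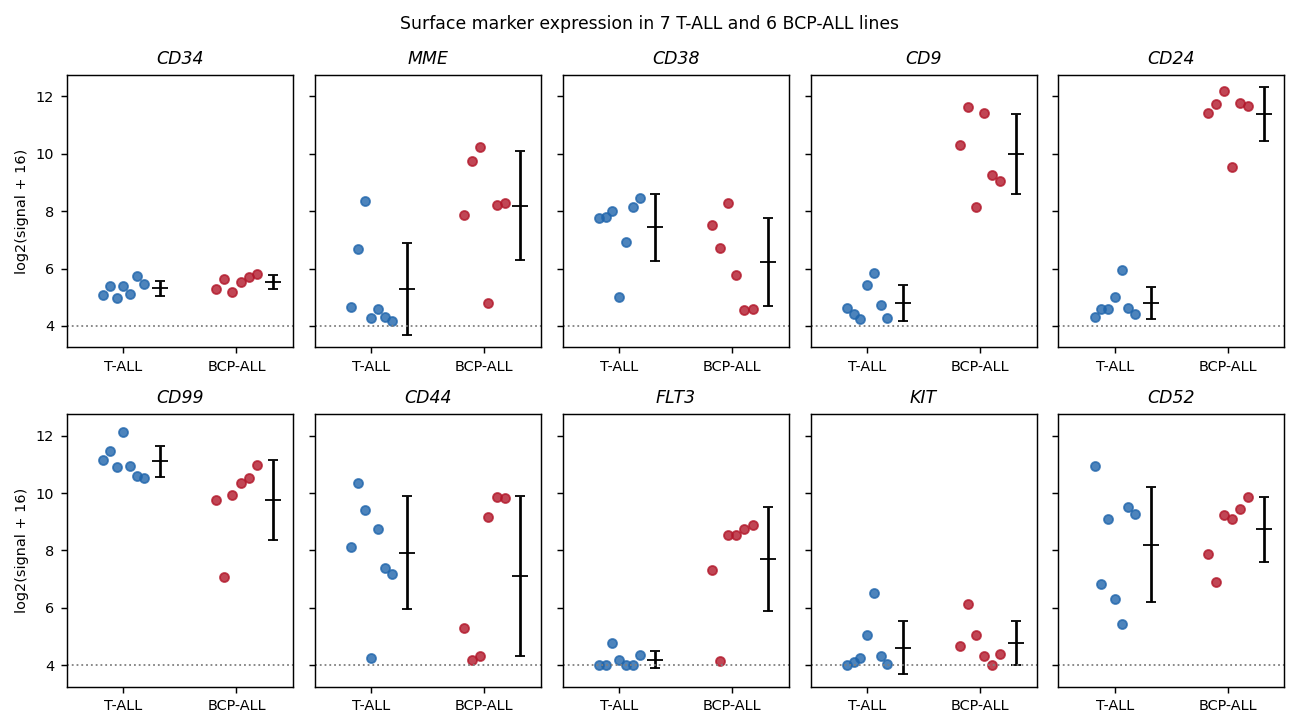
Expression of the 10 genes as log2(signal + 16), with a point for each of 7 T-ALL lines (left of each panel) and 6 BCP-ALL lines (right), the mean with its SD beside them, and the floor of 4 dotted. CD24 and CD9 separate the lineages with no overlap, while CD34 stays within 4.98 and 5.82 and CD44 spans most of its range in both lineages.

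CD24, a small sialoglycoprotein held in the membrane by a GPI anchor and present on B-cell precursors, showed the widest separation. Its level was lowest in ALL-SIL (4.33), had a median of 4.59 and was highest in Molt4 (5.96) among T-ALL lines, against a lowest level of 9.53 in RS4;11, a median of 11.70 and a highest level of 12.20 in REH among BCP-ALL lines. Every BCP-ALL line was therefore above every T-ALL line, and 5 of the 7 T-ALL lines were near the floor. CD24 averaged 4.78 ± 0.559 in T-ALL (SD, n = 7) and 11.38 ± 0.943 in BCP-ALL (SD, n = 6), a difference of -6.60 log2 units (SE 0.395, limma adjusted p = 4.35e-07) that ranked second in size among genes lower in T-ALL. The two-sided exact permutation test gave p = 0.000583, the smallest that 1716 assignments of the lines allow. All 5 other CD24 probe sets followed it over the lines (r 0.989 to 0.999), with differences of -6.86 to -5.34. Probe sets of CD24 that are designed on shared sequence can also detect related transcripts.

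CD9, a tetraspanin that organizes integrins and other partners in the membrane, was also lower in T-ALL. Among T-ALL lines it was lowest in HPB-ALL (4.25), had a median of 4.63 and was highest in Molt4 (5.86), against a lowest level of 8.15 in REH, a median of 9.78 and a highest level of 11.64 in Nalm6 among BCP-ALL lines. No value overlapped, and the gap between Molt4 and REH was 2.29 log2 units. CD9 averaged 4.80 ± 0.617 in T-ALL (SD, n = 7) and 9.98 ± 1.40 in BCP-ALL (SD, n = 6), a difference of -5.17 (SE 0.542, limma adjusted p = 7.98e-05). The BCP-ALL lines themselves spread over 3.50 log2 units, with Nalm6 (11.64) and RS4;11 (11.43) above 697 (10.31), and Nalm16 (9.25), Nalm30 (9.06) and REH below. Within BCP-ALL, REH had the highest CD24 and the lowest CD9, and RS4;11 the lowest CD24 and the second highest CD9. Nalm6, highest for CD9, was also high for CD24 (11.74). The relation of CD9 with CD24 within BCP-ALL did not pass (r = -0.62, exact permutation p = 0.163). Of the other CD9 probe sets, 1 was near the floor in every line (difference -0.40, r = 0.86 with the one used). The other differed by only -0.08 (r = 0.08).

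FLT3, the receptor tyrosine kinase for FLT3 ligand on early progenitors, was near the floor in all 7 T-ALL lines, between 4.0 in P12-ICHIKAWA and 4.78 in HPB-ALL with a median of 4.01, against 8.88 in Nalm30, 8.74 in Nalm16, 8.54 in RS4;11, 8.53 in REH, 7.33 in 697 and 4.16 in Nalm6. Thus 5 of 6 BCP-ALL lines were above every T-ALL line, and Nalm6 lay among the T-ALL values. FLT3 averaged 4.19 ± 0.294 in T-ALL (SD, n = 7) and 7.70 ± 1.82 in BCP-ALL (SD, n = 6), with a difference of -3.50 (SE 0.645, limma adjusted p = 0.00740). The call did not hold with the exact permutation test over the lines (p = 0.00233, adjusted p = 0.0553). Its gene was represented by 1 probe set.

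**Figure D2:**
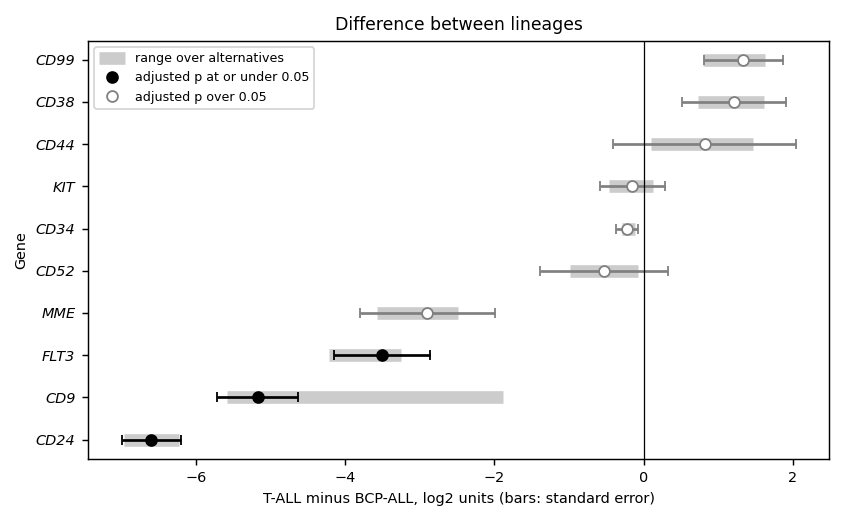
Difference T-ALL minus BCP-ALL in log2 units for each gene, with its standard error, filled where limma's adjusted p was at or under 0.05, and the range over the alternative settings in gray. CD24, CD9 and FLT3 are the filled points, at -6.60, -5.17 and -3.50, and the gray range of CD9 reaches -1.88, the value when all its probe sets are averaged.

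Sequences at the transcription start are shown for the 3 genes that passed the test, so that their base composition can be read beside their levels. They are RefSeq sequences of build GRCh38.p14, 5′ to 3′ on the strand of the gene, from 250 bases before to 50 bases after the start. CD24 is on the minus strand of chromosome 6 (chr6:106975578-106975877, the first of 3 starts listed), CD9 on the plus strand of chromosome 12 (chr12:6199696-6199995, the first of 4), and FLT3 on the minus strand of chromosome 13 (chr13:28100527-28100826). Capitals mark, on either strand, the E-box CAGGTG (the type bound by E2A proteins), the palindrome CCCNNGGG (the type bound by EBF1), the ETS-type core CCGGAA and the GC box GGGCGG, with overlapping matches joined.
CD24: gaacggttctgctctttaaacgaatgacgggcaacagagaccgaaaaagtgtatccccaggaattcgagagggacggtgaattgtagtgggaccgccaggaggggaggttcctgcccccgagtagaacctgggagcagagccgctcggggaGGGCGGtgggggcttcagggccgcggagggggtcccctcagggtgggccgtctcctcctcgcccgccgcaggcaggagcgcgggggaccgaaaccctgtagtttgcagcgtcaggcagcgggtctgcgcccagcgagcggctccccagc
CD9: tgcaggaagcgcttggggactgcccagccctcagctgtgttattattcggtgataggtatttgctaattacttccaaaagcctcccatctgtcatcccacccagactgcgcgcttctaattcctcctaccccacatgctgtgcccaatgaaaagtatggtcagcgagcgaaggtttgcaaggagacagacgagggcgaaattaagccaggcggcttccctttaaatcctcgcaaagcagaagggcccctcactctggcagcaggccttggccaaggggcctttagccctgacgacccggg
FLT3: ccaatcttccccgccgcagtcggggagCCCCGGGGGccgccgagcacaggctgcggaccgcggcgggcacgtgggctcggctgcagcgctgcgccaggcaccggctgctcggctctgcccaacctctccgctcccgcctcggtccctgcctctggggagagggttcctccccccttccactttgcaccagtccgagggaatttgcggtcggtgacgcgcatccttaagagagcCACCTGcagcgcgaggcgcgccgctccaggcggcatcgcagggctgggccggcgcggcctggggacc

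The CD24 window held 66.7% G and C with 25 CpG dinucleotides, the FLT3 window 74.0% with 34, and the CD9 window 55.3% with 12, while all 27305 promoters of the table had a median of 58.3% and 14. The FLT3 window held 1 E-box match and 2 overlapping palindrome matches, the CD24 window 1 GC box, and the CD9 window none of these letters. Over the 10 members, CAGGTG was found in 2 (CD38 and FLT3) and in 20.6% of all promoters, CCCNNGGG in 2 (CD99 and FLT3) and in 18.6%, GGGCGG in 6 and in 44.6%, and CCGGAA in 0 and in 17.6%. These matches are descriptions of the sequence.

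The other progenitor antigens varied little or stayed low. CD34, the sialomucin used to isolate hematopoietic stem and progenitor cells, ranged from 4.98 in HPB-ALL to 5.75 in P12-ICHIKAWA with a median of 5.38 in T-ALL lines, and from 5.18 in REH to 5.82 in Nalm30 with a median of 5.59 in BCP-ALL lines. It averaged 5.31 ± 0.268 in T-ALL (SD, n = 7) and 5.53 ± 0.246 in BCP-ALL (SD, n = 6) and did not pass (difference -0.22, SE 0.146, limma adjusted p = 0.427). Its SD over the 13 lines exceeded that of 32.8% of genes only, so that no line stood out for this defining progenitor marker. KIT, the receptor for stem cell factor, was near the floor in 9 lines. It was highest in Molt4 (6.51), next in Jurkat (5.07) and between 4.0 and 4.33 in the other 5 T-ALL lines, and among BCP-ALL lines it was highest in Nalm6 (6.15), next in REH (5.04) and between 4.01 and 4.68 in the other 4. The means, 4.62 ± 0.908 in T-ALL (SD, n = 7) and 4.77 ± 0.762 in BCP-ALL (SD, n = 6), did not differ beyond this spread (difference -0.15, SE 0.440, limma adjusted p = 0.894), and without Nalm6 the difference was 0.13. KIT and CD34 were each represented by 1 probe set.

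Among 19 measured stem and progenitor genes, 4 were lower and 0 were higher in T-ALL, with a median difference of -1.16 log2 units. Over all genes, 4.45% passed in either direction, 2.17% were lower in T-ALL, and the median difference was -0.01. MEF2C, a transcription factor of lymphoid progenitors, averaged 4.75 ± 1.69 in T-ALL (SD, n = 7) and 10.77 ± 0.746 in BCP-ALL (SD, n = 6; limma adjusted p = 0.000199). ENG, a TGF-beta co-receptor, averaged 4.24 ± 0.177 in T-ALL and 7.43 ± 0.895 in BCP-ALL (limma adjusted p = 5.87e-05). ERG, an ETS transcription factor of stem cells, differed by -3.82 (limma adjusted p = 0.00190), and LYL1, the remaining gene that passed, by -3.20. Thus these 4 genes were lower in T-ALL, as FLT3 was, while CD34 and KIT did not pass. Of 18 measured class III receptor kinases, ligands and signaling partners, LYN was the only one that passed, a share near that of all genes. This SRC family kinase ranged from 4.0 to 4.31 in T-ALL lines and from 6.58 to 9.58 in BCP-ALL lines (difference -4.19, limma adjusted p = 1.37e-05).

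MME encodes neprilysin, the membrane metallopeptidase known as CD10 or common ALL antigen. Among T-ALL lines it was 8.35 in HPB-ALL and 6.67 in CCRF-CEM and between 4.17 and 4.65 in the other 5. Among BCP-ALL lines it was 10.22 in REH, 9.74 in Nalm6, 8.28 in Nalm30, 8.21 in Nalm16, 7.85 in 697 and 4.80 in RS4;11. Each lineage therefore held lines that lay within the range of the other: RS4;11, a line known to carry a KMT2A fusion, was near the floor like 5 T-ALL lines, and HPB-ALL was above 4 BCP-ALL lines. MME averaged 5.29 ± 1.60 in T-ALL (SD, n = 7) and 8.18 ± 1.90 in BCP-ALL (SD, n = 6), and did not pass with all lines (difference -2.90, SE 0.902, limma adjusted p = 0.0943). It passed without RS4;11 (-3.57, limma adjusted p = 0.0244) and without HPB-ALL (-3.41, limma adjusted p = 0.0347). The other MME probe set followed it (r = 0.984).

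The relatives of these B-precursor antigens were mixed in direction. Of 18 tetraspanins other than CD9, 4 were lower in T-ALL and 2 were higher. Over all genes, 2.17% were lower in T-ALL and 4.45% passed in either direction. TSPAN14, a partner of the protease ADAM10, averaged 6.25 ± 0.708 in T-ALL (SD, n = 7) and 8.45 ± 0.319 in BCP-ALL (SD, n = 6; difference -2.19, limma adjusted p = 0.000855), and TSPAN13 differed by -2.52 and TSPAN3 by -0.62. In the other direction, TSPAN7 averaged 10.08 ± 1.66 in T-ALL and 5.47 ± 1.23 in BCP-ALL (difference 4.60, limma adjusted p = 0.00375), and CD82 differed by 2.26 (limma adjusted p = 0.0129). TSPAN9 was the fourth that was lower. Among 15 GPI-anchored surface proteins other than CD24 and CD52, 0 passed, and the smallest p was that of the ectonucleotidase NT5E (CD73; difference -1.31, limma adjusted p = 0.0735). Of 10 metallopeptidases of the neprilysin group and related surface peptidases, ECE1, the endothelin-converting enzyme, was higher in T-ALL (difference 1.10, SE 0.278, limma adjusted p = 0.0414), and the other 9 did not pass.

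CD38, an ectoenzyme that consumes NAD, was found in both lineages. Among T-ALL lines it was lowest in Jurkat (5.02), had a median of 7.79 and was highest in TALL-1 (8.46), against 8.27 in REH, 7.51 in 697, 6.70 in Nalm6, 5.77 in RS4;11, 4.58 in Nalm30 and 4.57 in Nalm16 among BCP-ALL lines. Of all lines, Nalm16 and Nalm30 alone were near the floor. The means of 7.44 ± 1.17 in T-ALL (SD, n = 7) and 6.24 ± 1.53 in BCP-ALL (SD, n = 6) did not differ beyond the spread between lines (difference 1.21, SE 0.696, limma adjusted p = 0.354). Of 12 enzymes and partners of NAD metabolism around CD38, 0 passed, and NT5E again had the smallest p. Over all genes 4.45% passed, a share at which a short list can give 0.

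CD99, a glycoprotein of cell adhesion and leukocyte migration, was high in every line but one. It ranged from 10.53 in TALL-1 through a median of 10.93 to 12.13 in Jurkat in T-ALL, against 10.98 in Nalm30, 10.51 in Nalm16, 10.34 in RS4;11, 9.94 in REH, 9.74 in 697 and 7.06 in Nalm6 in BCP-ALL. Nalm6 was 2.68 log2 units below the next line, and Nalm30 lay within the T-ALL range. CD99 averaged 11.10 ± 0.552 in T-ALL (SD, n = 7) and 9.76 ± 1.39 in BCP-ALL (SD, n = 6) and did not pass (difference 1.34, SE 0.532, limma adjusted p = 0.186). Without Nalm6 the difference was 0.80, which did not pass either. Its other probe set gave the same pattern (r = 0.991, difference 1.36). Of 6 relatives, partners and ligands of CD99, 0 passed, against 4.45% of all genes. The smallest p was that of the receptor PILRA (difference 0.41, limma adjusted p = 0.126).

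CD44, the hyaluronan receptor used in homing to the marrow, split both lineages. In T-ALL it was 10.34 in CCRF-CEM, 9.40 in HPB-ALL, 8.75 in Molt4, 8.13 in ALL-SIL, 7.39 in P12-ICHIKAWA, 7.19 in TALL-1 and 4.25 in Jurkat. In BCP-ALL it was 9.85 in Nalm16, 9.81 in Nalm30, 9.15 in RS4;11, 5.29 in 697, 4.33 in REH and 4.18 in Nalm6. Jurkat, REH and Nalm6 were near the floor and 697 just above it, while the lowest of the other 9 lines reached 7.19. The lineage means of 7.92 ± 1.96 in T-ALL (SD, n = 7) and 7.10 ± 2.78 in BCP-ALL (SD, n = 6) did not differ beyond this spread (difference 0.82, SE 1.22, limma adjusted p = 0.758). Single lines moved this difference, which lay between 0.23 (without Nalm6) and 1.43 (without Jurkat), and it was 0.09 as the mean of all probe sets. Of the 12 other CD44 probe sets, 6 followed the same lines (r 0.915 to 0.966) with lineage differences of -0.19 to 0.43, and the other 6 reached at most 5.25 in any line. Among 15 measured ligands, linkers and proteases of CD44, 0 passed, against 4.45% of all genes. The smallest p was that of the hyaluronan receptor LYVE1 (difference -0.32, limma adjusted p = 0.121).

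**Figure D3:**
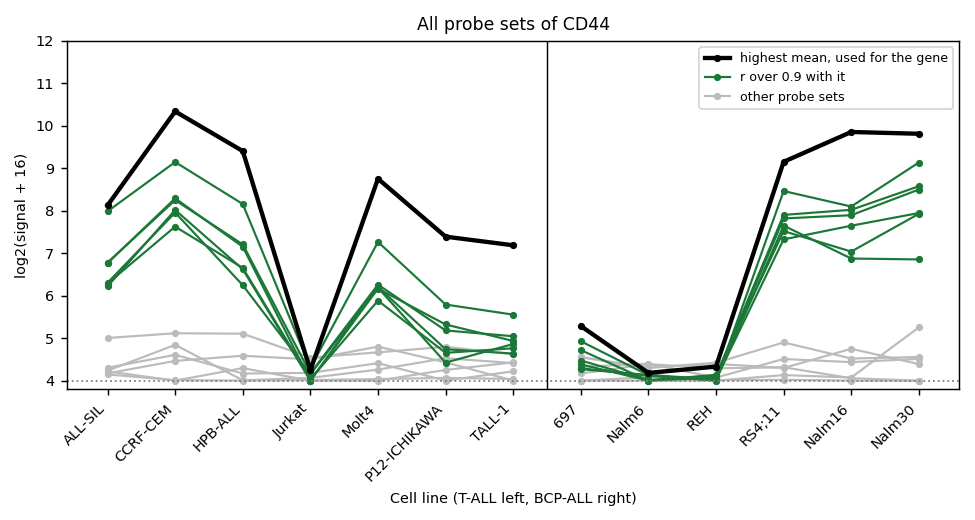
Level of all 13 CD44 probe sets as log2(signal + 16) in each line, T-ALL left and BCP-ALL right, with the probe set used for the gene in black, the 6 that followed it (r over 0.9) in green and the other 6 in gray. The black and green lines drop near the floor of 4 in Jurkat, Nalm6 and REH, and the gray ones stay at or under 5.25 in all lines.

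CD52, a short GPI-anchored peptide of mature lymphocytes, was near the floor in no line. In T-ALL it was lowest in Molt4 (5.44), had a median of 9.11 and was highest in ALL-SIL (10.95), a range of 5.51 log2 units. The level in Molt4 was close to the highest T-ALL array median (5.32). In BCP-ALL, CD52 had a lowest level of 6.88 in Nalm6, a median of 9.16 and a highest level of 9.87 in Nalm30. All BCP-ALL values lay within the T-ALL range. CD52 averaged 8.20 ± 2.01 in T-ALL (SD, n = 7) and 8.73 ± 1.12 in BCP-ALL (SD, n = 6) and did not pass (difference -0.53, SE 0.862, limma adjusted p = 0.780). The other CD52 probe set followed it (r = 0.974).

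Of 18 further measured markers used to find residual BCP-ALL, IGFBP7, a secreted protein, was the only one that passed, at 4.45 ± 0.785 in T-ALL (SD, n = 7) and 9.12 ± 2.48 in BCP-ALL (SD, n = 6; difference -4.67, limma adjusted p = 0.0111). It was also among the genes most like FLT3 over the lines. Over all genes, 4.45% passed in either direction, and 1 of 18 is near that share.

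Read by line, the 10 genes gave combinations that did not follow lineage alone. Nalm6 had the highest CD9 of all lines together with the lowest CD99 and CD44, FLT3 near the floor and KIT at 6.15. REH had the highest MME and CD24, with CD44 near the floor. RS4;11 combined FLT3 and CD44 with MME near the floor and the lowest CD24 of the BCP-ALL lines. Nalm16 and Nalm30 had CD38 and KIT near the floor with FLT3 and CD44 high, and differed by a median of 0.14 log2 units over the members. Among T-ALL lines, HPB-ALL, TALL-1, ALL-SIL and P12-ICHIKAWA had 5 members near the floor each, CCRF-CEM 4, Jurkat 3 and Molt4 2. Jurkat was the 1 T-ALL line with CD44 near the floor, and it had the highest CD99 of all lines. Molt4 had the highest KIT and the lowest CD52 of all lines.

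**Figure D4:**
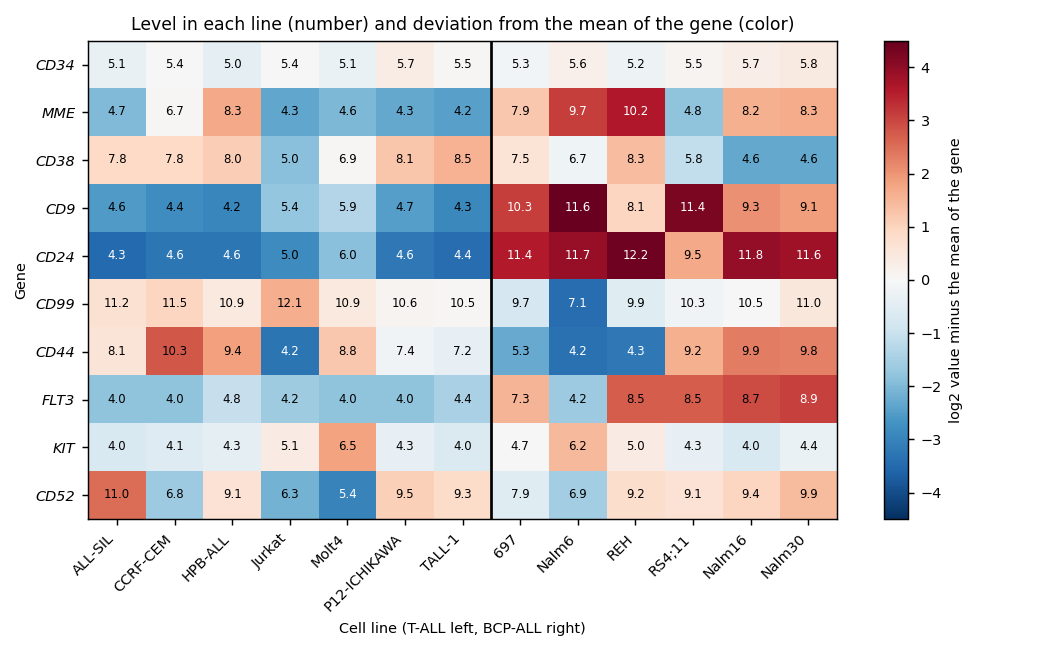
Level of each gene in each line as log2(signal + 16), printed in the cell, with T-ALL left and BCP-ALL right of the black line, and colored by its deviation from the mean of that gene over the 13 lines. CD24 and CD9 change color at the black line, whereas CD44 is low in Jurkat, Nalm6 and REH and CD38 is lowest in Nalm16 and Nalm30.

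Relations between the members were computed for 45 pairs over the 13 lines by Pearson's r and Spearman's rho, with permutation p-values adjusted over the 45. Of these, 4 passed by Pearson's r and 0 by Spearman's rho, and 0 passed when lineage means were removed or when P12-ICHIKAWA and TALL-1 counted as 1 line. KIT and CD52 ran in opposite directions (r = -0.73, permutation p = 0.00433, adjusted p = 0.0487; rho = -0.62, permutation p = 0.0272, adjusted p = 0.245). Within T-ALL their r was -0.76 (exact permutation p = 0.0171) and within BCP-ALL -0.81 (exact permutation p = 0.050), neither of which passed after adjustment, and with lineage means removed it was -0.76 (permutation p = 0.00124, adjusted p = 0.0558). Without Molt4 and Nalm6, the lines farthest from the median of KIT, r was -0.47 and no longer passed (permutation p = 0.135). The other 3 pairs were CD9 with CD24, CD24 with FLT3 and CD9 with CD99. Each involves a gene whose values fall into separate lineage clusters, so their values within lineages are given here. CD9 and CD24 had r = 0.89 within T-ALL (exact permutation p = 0.0127, adjusted p = 0.143; rho = 0.75, exact permutation p = 0.0663), where both were highest in Molt4 and next in Jurkat. Within BCP-ALL their r was -0.62 (exact permutation p = 0.163; rho = -0.54, exact permutation p = 0.297). CD24 and FLT3 had r = -0.25 within T-ALL (exact permutation p = 0.581) and -0.17 within BCP-ALL (exact permutation p = 0.676), and CD9 and CD99 had 0.37 within T-ALL (exact permutation p = 0.425) and -0.58 within BCP-ALL (exact permutation p = 0.221).

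Within a lineage, each family of 45 pairs was also adjusted on its own, and 1 pair passed within T-ALL and 5 within BCP-ALL. In T-ALL it was CD24 with KIT (r = 0.99, exact permutation p = 0.000397, adjusted p = 0.0179; rho = 0.96), both highest in Molt4 and next in Jurkat and near the floor in the other 5 lines. Jurkat was just above the near-floor limit of 5 for both (CD24 5.01, KIT 5.07). Their r was 0.96 without Molt4. Levels near the floor have no reliable order, so the rho and the r without Molt4 cannot show a relation among those lines. In BCP-ALL, CD99, FLT3 and CD52 went together: r was 0.98 for CD99 with FLT3, 0.95 for FLT3 with CD52 and 0.92 for CD99 with CD52 (exact permutation test, adjusted p = 0.0469 each). All 3 genes were lowest in Nalm6 and next lowest in 697, and without Nalm6 the r of CD99 with FLT3 was 0.79, that of CD99 with CD52 0.85 and that of FLT3 with CD52 0.98. MME with CD24 had r = 0.95 (exact permutation test, adjusted p = 0.050), with RS4;11 lowest for both and REH highest. Without RS4;11, where MME was near the floor, their r was 0.83. CD44 with KIT had r = -0.82 (exact permutation test, adjusted p = 0.0469). Of the 6 BCP-ALL lines, KIT was near the floor in 4 and CD44 in 2, and levels there have no reliable order. The 6 BCP-ALL lines include Nalm16 and Nalm30, whose profiles were alike, so these relations may rest on fewer than 6 separate leukemias, which was not tested. With any 1 line left out, 0 pairs passed within either lineage, where fewer lines also raise the smallest p that can be reached.

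The genes whose levels were most like each member are given as a description. They were ranked by Pearson's r over the 13 lines among 12399 genes with a mean above 5. The points share lineage and include lines with alike profiles. For CD24 they were HLA-DPB1 (r = 0.987), an MHC class II chain, NPY (r = 0.980) and CHST15 (r = 0.979). For CD9 they were PHACTR1 (r = 0.974), LYN (r = 0.972) and the B-cell kinase BTK (r = 0.953), and for FLT3 they were KCNK12 (r = 0.972), IGFBP7 (r = 0.969) and CRMP1 (r = 0.967). These values for the 3 genes that passed include the lineage difference itself. For CD38 they were DIAPH3 (r = 0.965), TMPO (r = 0.964) and PPM1B (r = 0.942), and for CD99 PIGH (r = 0.941), PRPS2 (r = 0.925) and ZNF32 (r = 0.925). The values for MME (TSPAN9, CKAP4 and GLI3), CD34 (SHKBP1, TRIM3 and TBC1D4), KIT (KIAA1671, RBM12 and PCOLCE2) and CD52 (MR1, SH2D3C and ABCF1) lay between 0.860 and 0.908. CD44 had the least close neighbors, SLC1A4 (r = 0.854), GNAS (r = 0.827) and BRD3 (r = 0.821).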

How the data were processed

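RNA from 13 untreated ALL cell lines was hybridized to HG-U133 Plus 2.0 arrays, 1 per line. The authors made the deposited log2 values with the iterPLIER+16 algorithm, and the submitters' processing notes name Affymetrix Expression Console, whose version is not stated there. The scaling between arrays was not given in the sources used. Labels state phenol-chloroform extraction and the methods a spin column. No slide or scan date was given, so no batch could be examined.

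Of 42450 probe sets, 38125 had 1 gene symbol in the platform annotation, 1742 had several and 2583 had none, and the last 2 kinds were left out. Each of the 18568 genes was represented by its brightest probe set on average. T-ALL minus BCP-ALL was fitted without a filter on low values, so that every member was tested, with limma 3.58.1 in R 4.3.3 and Benjamini-Hochberg adjustment at 0.05, and the steps were tested on simulated data. Other steps used Python 3.11.15 (pandas 2.3.3, numpy 2.4.6, matplotlib 3.10.9, scipy 1.17.1). Correlations over 13 lines used 100000 permutation resamples and those within lineages all pairings, two-sided. The genes named are the 10 members, up to 3 genes in each direction with the smallest adjusted p of each list (or the 1 with the smallest p), and the 3 genes most like each member. PAX5 and CD3D, MPO and LYZ, LYL1, and TSPAN9 were named outside these counts after their values were seen. The members and lists were chosen with earlier results of these data known. Alternatives covered normalization, the filter, the variance model, array weights, the probe set, the test, related lines, and each line left out. List genes outside the table were not analysed here.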

Additional observations from a re-analysis of the deposited data

Results flagged for a closer look

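In 5 of 20 groups tested, 10 genes in each lineage, 1 line lay far from the rest by Dixon's ratio, the gap to the nearest line divided by the range of the group. For normally distributed values, chance gives about 1 in 20 such groups. That share cannot be set against the count here, because values at a floor are not normally distributed. CD24 and KIT were each near the floor in 5 of the 7 T-ALL lines, and the groups share the same lines. Molt4 was the highest T-ALL line for CD24 (ratio 0.582, level 5.96) and for KIT (ratio 0.573, level 6.51). RS4;11 was the lowest BCP-ALL line for CD24 (ratio 0.706, level 9.53). Nalm6 was the lowest BCP-ALL line for CD99 (ratio 0.684, level 7.06) and for FLT3 (ratio 0.672, level 4.16). The critical ratio was 0.568 for 7 lines and 0.625 for 6.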

How the results depend on the processing

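CD24 and CD9 passed under all 23 alternatives, FLT3 under 22 and MME under 2, and of 229 alternatives of single members 225 left direction and call as they were. FLT3 missed the threshold by the exact permutation test (-3.50, adjusted p = 0.0553). MME passed without RS4;11 (-3.57) and without HPB-ALL (-3.41). KIT turned to 0.13 without Nalm6, between -0.46 and 0.13 over the lines left out, and it was the 1 member that a filter on low values removed. Averaging all probe sets moved CD9 to -1.88, still past the threshold, since its other probe sets are low. Over all genes, 827 passed with all lines, 543 with P12-ICHIKAWA and TALL-1 as 1 line, and 381 with Nalm16 and Nalm30 also as 1 line. With each line left out in turn the count lay between 530 (without TALL-1) and 1014 (without REH), and it was 540 without P12-ICHIKAWA and 540 without Nalm30. Of the 45 pairs of members, 4 passed by Pearson's r, 0 by Spearman's rho, 0 with lineage means removed and 0 with P12-ICHIKAWA and TALL-1 as 1 line. Within T-ALL 1 pair passed and within BCP-ALL 5 did. With each line left out in turn, an alternative chosen after seeing the data, 0 passed in either lineage. Fewer lines raise the smallest p that can be reached, so this count cannot show that a relation depends on 1 line. For CD24 with KIT in T-ALL without CCRF-CEM, an exact permutation p of 0.00139 still adjusted to 0.0625. Without the 2 outlying lines, also chosen later, r was -0.47 for KIT with CD52 and -0.56 for CD9 with CD99, and neither passed. The causes of these changes were not tested. No paired analysis was possible because the labels pair no T-ALL line with a BCP-ALL line. The labels give no replicate numbers, and those used here only name lines. CD99 moved to 0.80 without Nalm6 and CD44 to 0.23 without Nalm6. The number of lines limits the precision, and levels near the floor have no reliable order.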
